A study of Mus musculus with 31 samples.

Results

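Cholecystokinin (Cck) and 6 genes for receptors or receptor partners of gut and pancreatic hormones were followed in mouse hypothalamus: Cckar, Cckbr, Glp1r, Ghsr, Gipr and Ramp3. The 7 genes were taken by name out of 54532 genes in the deposited table, and all 7 were among the 18743 genes with enough read pairs to be tested. The RNA-seq libraries came from 4-month-old C57BL/6J mice, an inbred strain, and fall into 4 groups by the diet of the dam and the sex of the offspring. Dams ate an obesogenic diet high in fat and sugar, or a control diet, through pregnancy and lactation. Every offspring, those of control dams included, was weaned to chow at day 21 and was given the obesogenic diet at 3 months of age, for 4 weeks, so the groups compared maternal diet in animals that had all eaten the obesogenic diet as adults. Female offspring of obesogenic dams (obesogenic females) gave 7 libraries, against 8 from female offspring of control dams (control females). Male offspring of obesogenic dams (obesogenic males) gave 8 libraries, against 8 from male offspring of control dams (control males). Neither animal nor litter is named in the labels. The p-values therefore reflect spread among libraries, which may in part be technical, and littermates may be among them.

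These hormones carry signals of meal size and energy state from the gut and pancreas to the brain, and several are also made by neurons. CCK is released by the small intestine during a meal and shortens it, mainly through the CCK-A receptor on vagal afferents, while the CCK-B receptor is the main CCK receptor of the brain and also binds gastrin. GLP-1 and GIP are incretins that raise insulin secretion after eating, and GLP-1 reduces food intake through its receptor in the hypothalamus and hindbrain. Ghrelin from the stomach acts the other way, raising food intake through the receptor that Ghsr encodes, which is abundant in the arcuate nucleus. RAMP3 is a single-pass membrane protein that joins the calcitonin receptor to form an amylin receptor, or the calcitonin receptor-like receptor to form an adrenomedullin receptor.

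The genes lie on 6 chromosomes of the mouse build GRCm38. Cck (ENSMUSG00000032532) lies on the minus strand of chromosome 9 at 121489824 to 121495694, with 1305 exonic bases in 4 blocks of merged exons. Glp1r (ENSMUSG00000024027) lies on the plus strand of chromosome 17 at 30901867 to 30936510, with 1480 exonic bases in 13 blocks. Cckbr (ENSMUSG00000030898, plus strand, 105425731 to 105470898) and Gipr (ENSMUSG00000030406, minus strand, 19156061 to 19166127) share chromosome 7. Cckar (ENSMUSG00000029193) occupies 53697776 to 53707705 on the minus strand of chromosome 5, and Ghsr (ENSMUSG00000051136) occupies 27371351 to 27378010 on the plus strand of chromosome 3. Ramp3 (ENSMUSG00000041046) occupies 6658521 to 6677475 on the plus strand of chromosome 11. None of the 7 shared exonic bases with another gene on its own strand, and 101 exonic bases of Ramp3 faced the predicted gene Gm11978 on the other strand, where strand-specific counting separates them.

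The 250 bases before the start of transcription are shown for Cck and Glp1r, the members of smallest p with maternal diet in females. Each reads 5′ to 3′ in the direction of its gene, from RefSeq on GRCm38.p6, where 5 of the 7 genes had an entry. Capitals mark matches on either strand to the cyclic AMP response element (TGACGTCA), to its first 5 letters alone (TGACG) and to the GC box (GGGCGG).
Cck, chr9:121495695-121495944, minus strand: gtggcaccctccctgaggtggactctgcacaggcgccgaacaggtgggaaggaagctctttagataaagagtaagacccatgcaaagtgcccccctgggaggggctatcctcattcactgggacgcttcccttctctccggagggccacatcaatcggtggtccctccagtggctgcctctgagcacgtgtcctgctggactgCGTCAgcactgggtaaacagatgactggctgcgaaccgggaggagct
Glp1r, chr17:30901617-30901866, plus strand: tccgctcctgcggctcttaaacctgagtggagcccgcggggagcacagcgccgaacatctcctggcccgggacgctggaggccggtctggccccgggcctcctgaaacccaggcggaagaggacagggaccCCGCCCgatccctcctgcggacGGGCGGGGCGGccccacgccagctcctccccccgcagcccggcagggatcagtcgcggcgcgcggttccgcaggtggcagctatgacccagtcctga
The Cck sequence held 1 copy of the 5-letter motif, on the strand opposite to the one printed, and no GC box. The Glp1r sequence held 3 GC boxes, 2 of which overlap by 1 base in the longer run of capitals, and no 5-letter motif. Of 32851 such windows of mouse genes, 17.8% held the 5-letter motif and 32.7% a GC box. The full 8-letter element stood in neither sequence and in 1.55% of all windows. A match is only a run of letters and no evidence that a factor binds there.

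Compared per length, as TPM (counts scaled by exonic length and by library), Cck was the most abundant of the set and Gipr the least. The median over the 31 libraries was 29.8 TPM for Cck, 14.4 TPM for Cckbr, 10.6 TPM for Ramp3, 8.54 TPM for Cckar, 6.33 TPM for Glp1r, 5.82 TPM for Ghsr and 1.07 TPM for Gipr. Both ends of this order were clear within libraries, since Cck exceeded Cckbr in 29 of 31 libraries and Ghsr exceeded Gipr in 29 of 31. The middle was not: Ramp3 exceeded Cckar in 22, Cckar exceeded Glp1r in 20 and Glp1r exceeded Ghsr in 20 of 31 libraries. The TPM levels of Ramp3 (10.7 ± 3.15), Cckar (8.47 ± 2.81), Glp1r (6.55 ± 2.97) and Ghsr (6.01 ± 2.43) had SDs over the 31 libraries that overlapped from each gene to the next. Total counts of 23118626 to 38547288 read pairs per library made 1 pair worth 0.0254 to 0.0442 CPM (counts over the library's total, scaled by TMM). Glp1r therefore rested on 2 to 164 pairs per library and Gipr on 10 to 171, while Cck rested on 78 to 4620 and Cckbr on 292 to 1748.

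**Figure D1:**
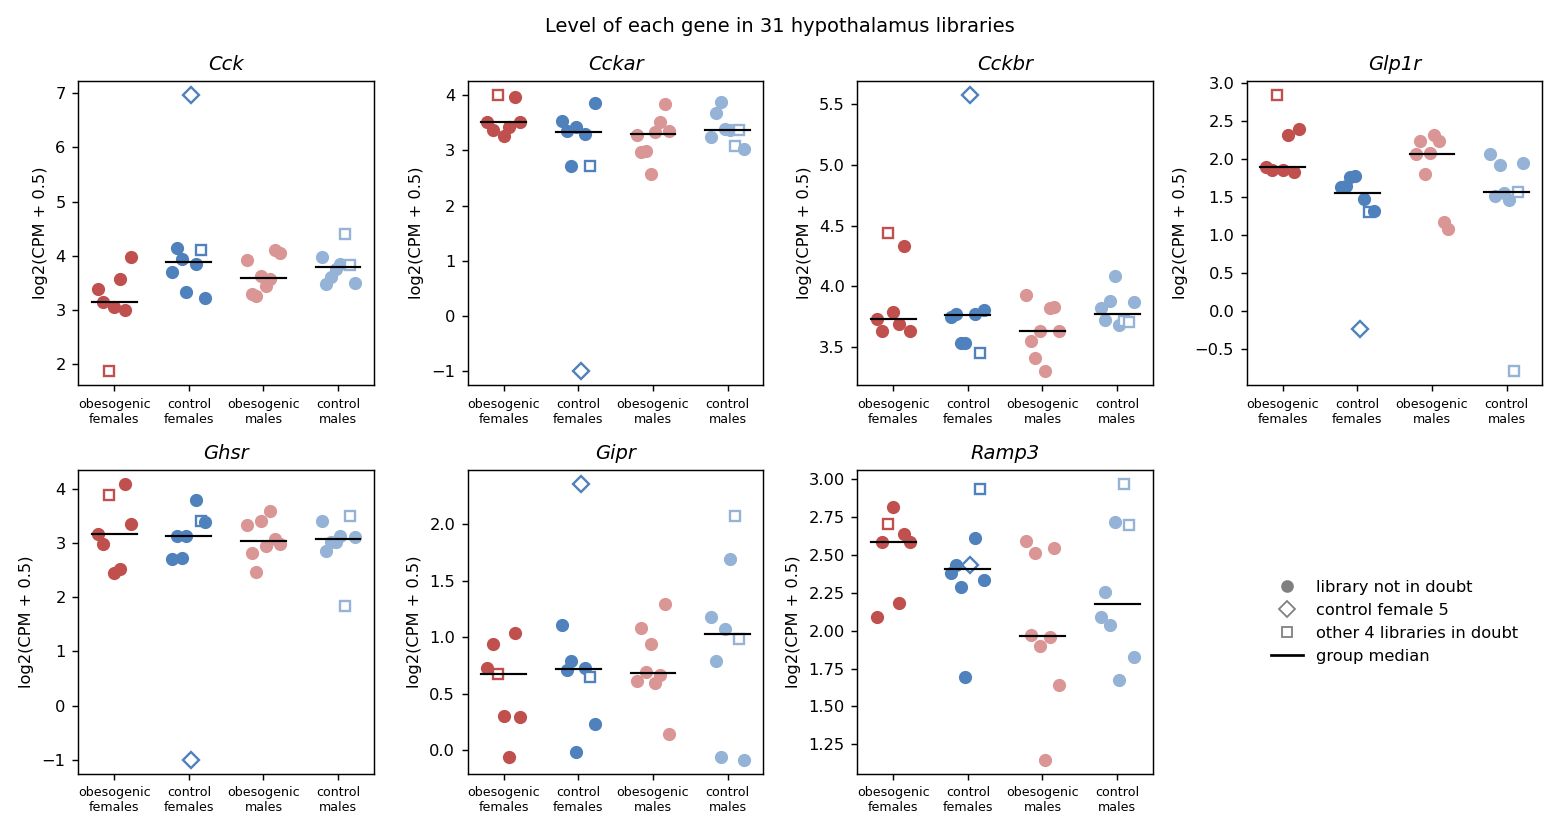
Level of each gene in each of 31 libraries as log2(CPM + 0.5), with obesogenic females, control females, obesogenic males and control males from left to right, 1 point per library and a line at each group's median; each panel has its own vertical scale. Control female 5 (open diamond) lies at the top for Cck, Cckbr and Gipr and at the bottom for Cckar and Ghsr, and for Glp1r all obesogenic females lie above all control females.

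Of the 31 libraries, 5 stood apart or went against their labels, and the fold changes of the 7 genes with maternal diet are given below with and without them. Control female 5 lacked most hypothalamic markers. Its Pmch, the melanin-concentrating hormone precursor of the lateral hypothalamus, stood at 1 read pair, and its Hcrt, the orexin precursor, at 4 pairs. Over 16 hypothalamic markers its summed level was 145 CPM, against 1137 to 3892 CPM in the other 30 libraries, with 14 of 16 below all others. The exception with read pairs was Trh, the thyrotropin-releasing hormone precursor, which at 139.7 CPM made up nearly all of that sum and lay above the median of the others (124.5 CPM). Agrp, Sim1, Nkx2-1, Fezf1, Nr5a1 and Hmx2 were at 0 pairs in it, and Kiss1 was at 0 in all 31 libraries. Markers of olfactory bulb summed to 2382 CPM in it, against 138 to 230 CPM elsewhere, with 9 of 10 above all others, and markers of cerebral cortex and hippocampus to 1495 CPM against 221 to 392 CPM, with 7 of 12 above. Control male 6 and obesogenic female 3 had pairs for 18734 and 18513 genes, against 21311 to 22918 in the other 29. The libraries labelled control female 7 and control male 7 went against their sex: control female 7 had 0.31 CPM of Xist and a sum of 138 CPM over 4 Y-linked genes, and control male 7 had 565 CPM of Xist and 0 CPM of those genes. The other 14 female libraries had 203 to 717 CPM of Xist and 0 CPM of the 4 genes, and the other 15 male libraries 0 to 0.526 CPM of Xist and 80.3 to 160 CPM of the 4 genes.

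Control female 5 was at an extreme of the 31 libraries for 5 of the 7 genes. Its Cck level was 124.9 CPM (4620 pairs), 10.6 times the median of the other 30, which lay between 3.17 and 20.7 CPM. Its Cckbr level was 47.3 CPM, against 9.36 to 21.2 CPM in the others, and its Gipr level 4.62 CPM, against 0.442 to 3.71 CPM. Cckar and Ghsr had 0 pairs in it, which allows up to 0.0811 CPM (3 pairs, counting error only), against at least 5.47 CPM for Cckar and 3.07 CPM for Ghsr in every other library. Glp1r stood at 0.351 CPM (13 pairs), below every other control female but above control male 6, and Ramp3 at 4.89 CPM was near the median of the others. Reads of the ghrelin receptor and of the CCK-A receptor were thus not detectable at this depth in the library that lacked most hypothalamic markers, where the CCK precursor and the CCK-B receptor stood higher than in any other. What part the tissue that went into this library had in these values was not tested.

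**Figure D2:**
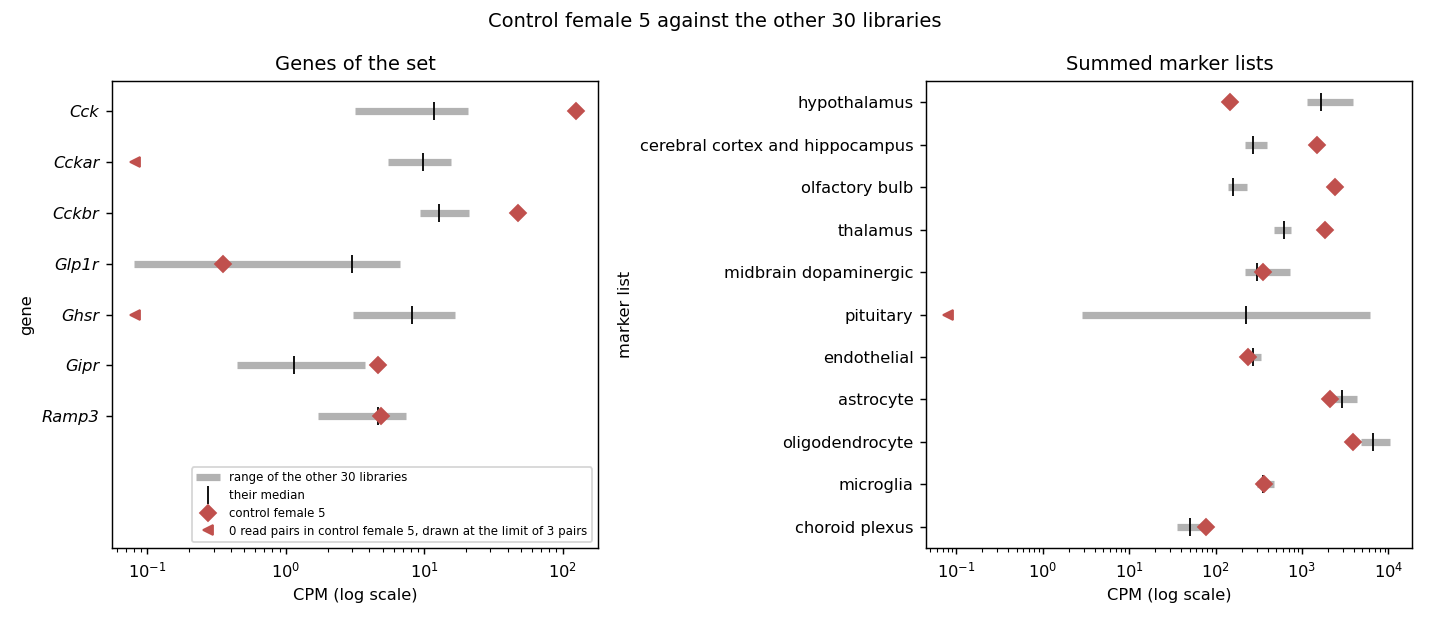
Control female 5 (red) against the range (grey bar) and median (black tick) of the other 30 libraries, in CPM on a log axis, for the 7 genes on the left and for the summed level of 11 marker lists on the right; triangles are sums of 0 pairs, drawn at the limit that 3 pairs set. Its Cck level of 124.9 CPM and its olfactory bulb sum of 2382 CPM lie far to the right of the other libraries, and its hypothalamic sum of 145 CPM far to the left.

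Cck, the only peptide precursor of the set, had lower values in most obesogenic female libraries, by an amount that depended on control female 5, and did not pass the test. The lowest, median and highest Cck levels were 3.17, 8.40 and 15.2 CPM in obesogenic females, against 8.89, 14.3 and 124.9 CPM in control females. Of the 7 obesogenic female libraries, 6 lay below the control female median, but the ranges overlapped. In the fit over all genes (edgeR's quasi-likelihood test with Benjamini-Hochberg adjustment over the genes tested) the log2 fold change was -1.59 ± 0.44 (SE), the 35th smallest p of 18743 (adjusted p = 0.5003), and it did not pass. Without control female 5 the control females ran from 8.89 to 17.1 CPM with a median of 13.9 CPM, and the log2 fold change was -0.55 ± 0.22 (edgeR, adjusted p = 0.701). Without all 5 libraries in doubt it was -0.35 ± 0.18 (edgeR, adjusted p = 0.602), with 5 of 6 obesogenic females below the control median. DESeq2, which replaced the Cck count of control female 5 as an outlier within its group, gave -0.54 ± 0.21 (adjusted p = 0.506). The direction was the same in each of these fits, and the size was much smaller once that single library was left out or replaced.

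In males Cck differed by less than its error. Obesogenic males had a lowest, median and highest Cck level of 9.08, 11.6 and 16.7 CPM, against 10.6, 13.5 and 20.7 CPM in control males, with control male 6 highest. The log2 fold change in males was -0.14 ± 0.41 (edgeR, adjusted p = 0.972), with a 95% interval from -0.98 to 0.70, and -0.01 ± 0.17 without the 5 libraries. The difference between the sexes in the diet effect on Cck, tested as an interaction, was -1.45 ± 0.60 (edgeR, adjusted p = 0.9996) and -0.33 ± 0.24 without the 5 libraries (adjusted p = 0.9999). It passed the threshold in neither.

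**Figure D3:**
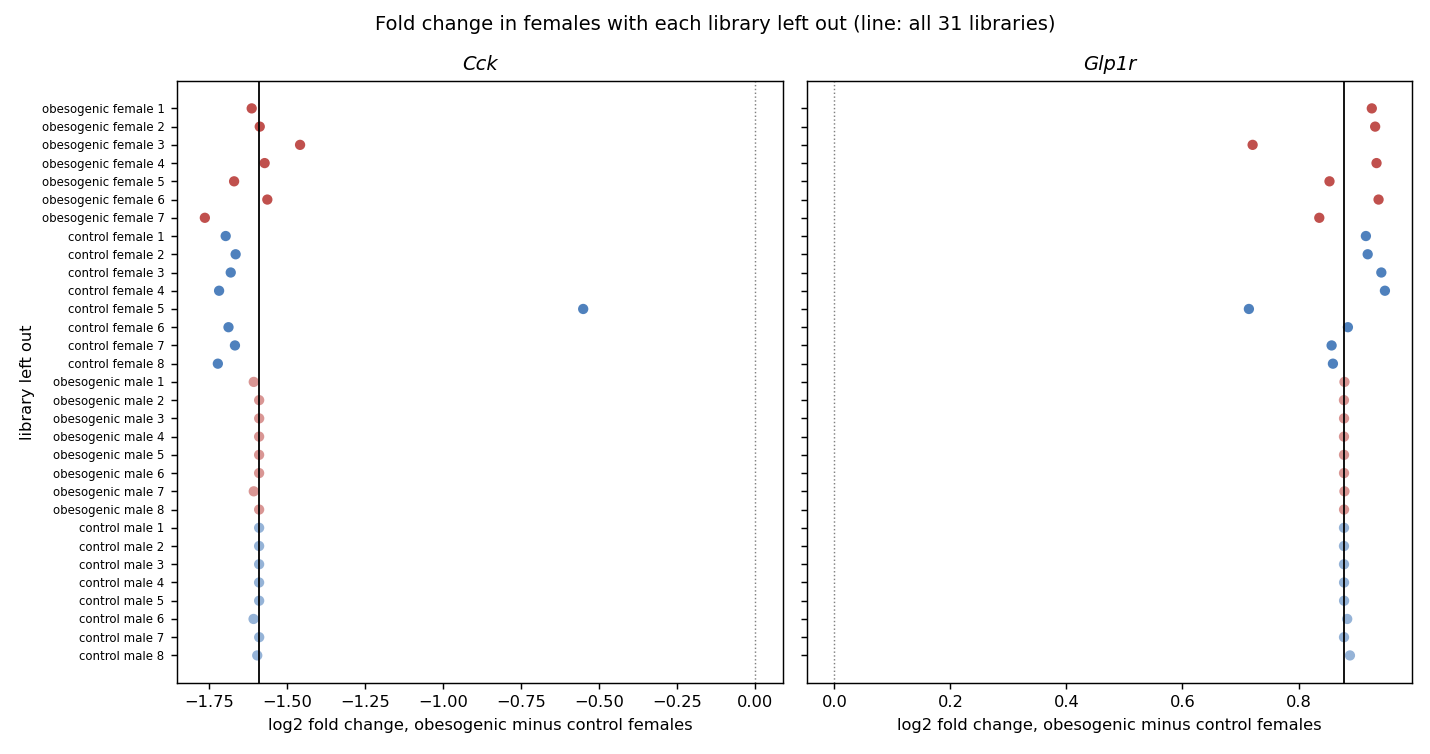
Log2 fold change (obesogenic minus control females, edgeR) of Cck and Glp1r when each of the 31 libraries is left out in turn; the solid line is the fit with all 31 and the dotted line is 0. For Cck the fit without control female 5 (-0.55) stands apart from the others, which run from -1.76 to -1.46, while for Glp1r all 31 lie between 0.71 and 0.95. Fits that leave out a male library keep every female library.

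Neither CCK receptor passed the test with maternal diet. Cckar, the CCK-A receptor, had a lowest, median and highest level of 9.11, 10.9 and 15.6 CPM in obesogenic females, against 0, 9.55 and 13.98 CPM in control females, where the 0 is control female 5. Its log2 fold change in females was 0.49 ± 0.39 (edgeR, adjusted p = 0.728), 0.30 ± 0.19 without control female 5 and 0.13 ± 0.19 without the 5 libraries. Cckbr, the CCK-B receptor, ran from 11.9 through a median of 12.8 to 21.2 CPM in obesogenic females, against 10.4, 13.1 and 47.3 CPM in control females. The 2 medians were close, and the highest library was one in doubt on either side, obesogenic female 3 and control female 5. The sign of its fold change turned with control female 5: -0.17 ± 0.23 with all 31 libraries (edgeR, adjusted p = 0.842), 0.28 ± 0.13 without that library (adjusted p = 0.701) and 0.13 ± 0.12 without the 5. In males the values were -0.14 ± 0.38 for Cckar and -0.17 ± 0.22 for Cckbr (edgeR, adjusted p = 0.969 and 0.940), and without the 5 libraries -0.20 ± 0.17 and -0.21 ± 0.11. Males ranged from 5.47 to 13.8 CPM (obesogenic) and 7.61 to 14.2 CPM (control) for Cckar, and from 9.36 to 14.7 CPM (obesogenic) and 12.4 to 16.4 CPM (control) for Cckbr.

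Glp1r, the receptor of glucagon-like peptide 1, was the member whose female groups did not overlap. Its lowest, median and highest levels were 3.04, 3.23 and 6.67 CPM in obesogenic females (82 to 164 read pairs), against 0.351, 2.44 and 2.93 CPM in control females (13 to 108 pairs). Every obesogenic female library lay above every control female library, and the highest of them was obesogenic female 3. Among all 18743 genes tested, 14 showed this arrangement (0.0747%), and the opposite one, which no member showed, was seen in 0.0427%. Leaving libraries out cannot make such groups overlap, so the smaller sets are no further test of the separation. Without control female 5, control females ran from 1.97 to 2.93 CPM, and 0.139% of genes were separated in this direction. Without the 5 libraries, 6 obesogenic females ran from 3.04 to 4.74 CPM against 6 control females at 1.99 to 2.93 CPM. The background there was 0.224%. The gap itself was small, 3.04 CPM in the lowest obesogenic female against 2.93 CPM in the highest control female, and 1 read pair was worth up to 0.0442 CPM. These 2 values rested on 102 pairs (obesogenic female 6) and 108 pairs (control female 4), where counting error alone is wider than the gap.

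The fitted change of Glp1r in females did not pass the threshold over all genes. Its log2 fold change was 0.88 ± 0.37 with a 95% interval from 0.12 to 1.64 (edgeR, adjusted p = 0.579). Means ± SD were 4.05 ± 1.35 CPM in obesogenic females (n = 7) and 2.20 ± 0.83 CPM in control females (n = 8). The log2 fold change was 0.71 ± 0.33 without control female 5 (edgeR, adjusted p = 0.701) and 0.50 ± 0.22 without the 5 libraries (adjusted p = 0.557). Leaving out each library in turn kept it between 0.71 and 0.95, with an unadjusted p under 0.05 in 30 of 31 fits, the exception being the fit without obesogenic female 3. Fits that left out a male library kept every female library. They could reach this contrast only through steps shared by all libraries, such as the scaling and the estimate of spread. In bulk tissue, more cells that express a receptor and more RNA per cell cannot be told apart. Summed hypothalamic markers ranged from 1394 to 2107 CPM in obesogenic females, against 145 (control female 5) to 1841 CPM in control females, and their part in the Glp1r values was not tested. Pmch alone weighs heavily in that sum. In the libraries other than control female 5, Pmch had a median of 886 CPM and the sum a median of 1672 CPM.

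In males Glp1r pointed the same way with overlapping groups. No member separated the male groups, which 0.0107% of all genes did with the obesogenic group above and 0.00534% with it below. Its lowest, median and highest levels were 1.61, 3.70 and 4.47 CPM in obesogenic males, against 0.0798, 2.45 and 3.68 CPM in control males, and 6 of 8 obesogenic males lay above the control median. The lowest value, 2 read pairs, came from control male 6, whose hypothalamic marker sum of 3892 CPM was the highest of all 31 libraries. Pmch alone made up 2332 CPM of that sum. The log2 fold change in males was 0.42 ± 0.36 (edgeR, adjusted p = 0.940) and 0.20 ± 0.21 without the 5 libraries. The diet effect in females minus that in males was 0.46 ± 0.52 (edgeR interaction, adjusted p = 0.9996), and 0.30 ± 0.30 without the 5 libraries, so a difference between the sexes was not shown.

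Gipr, the receptor of the other incretin, had the lowest median level of the set, at 10 to 171 read pairs per library. It ran from 0.461 through a median of 1.10 to 1.55 CPM in obesogenic females, against 0.488, 1.14 and 4.62 CPM in control females. In males it ran from 0.601 through 1.10 to 1.95 CPM after an obesogenic maternal diet, against 0.442, 1.54 and 3.71 CPM after control, with control male 6 highest. Its log2 fold changes of -0.56 ± 0.42 in females and -0.45 ± 0.40 in males (edgeR, adjusted p = 0.711 and 0.940) did not pass. Without control female 5 the female value was -0.05 ± 0.38. Without the 5 libraries the values were -0.06 ± 0.39 in females and -0.16 ± 0.36 in males.

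Ghsr, which encodes the ghrelin receptor, had nearly equal group medians throughout. They were 8.43 CPM in obesogenic females, 8.22 CPM in control females, 7.67 CPM in obesogenic males and 7.91 CPM in control males. Single libraries ranged more widely than the groups, from 4.95 to 16.6 CPM in obesogenic females against 0 to 13.4 CPM in control females, and from 5.01 to 11.6 CPM in obesogenic males against 3.07 to 10.8 CPM in control males. Its log2 fold change was 0.29 ± 0.43 in females and 0.07 ± 0.42 in males (edgeR, adjusted p = 0.858 and 0.990). Without the 5 libraries they were 0.01 in females and 0.02 in males, with 95% intervals from -0.47 to 0.49 in females and from -0.44 to 0.47 in males.

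Ramp3, near the median of the other libraries in control female 5, showed no change with diet that passed the test. Its lowest, median and highest levels were 3.76, 5.50 and 6.56 CPM in obesogenic females, against 2.74, 4.804 and 7.15 CPM in control females. In males they were 1.71, 3.40 and 5.53 CPM (obesogenic) against 2.70, 4.02 and 7.34 CPM (control), so the median was the higher one after the obesogenic maternal diet in females and the lower one in males. The log2 fold changes were 0.12 ± 0.23 in females and -0.27 ± 0.23 in males (edgeR, adjusted p = 0.896 and 0.940), and their difference was 0.40 ± 0.32 (edgeR, adjusted p = 0.9996). The values without the 5 libraries were 0.21 ± 0.23 in females and -0.04 ± 0.22 in males, with a difference of 0.25 ± 0.32. Averaged over both maternal diets, Ramp3 in females minus males was 0.28 ± 0.16 on the log2 scale (edgeR, adjusted p = 0.952), and 0.32 ± 0.16 without the 5 libraries.

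**Figure D4:**
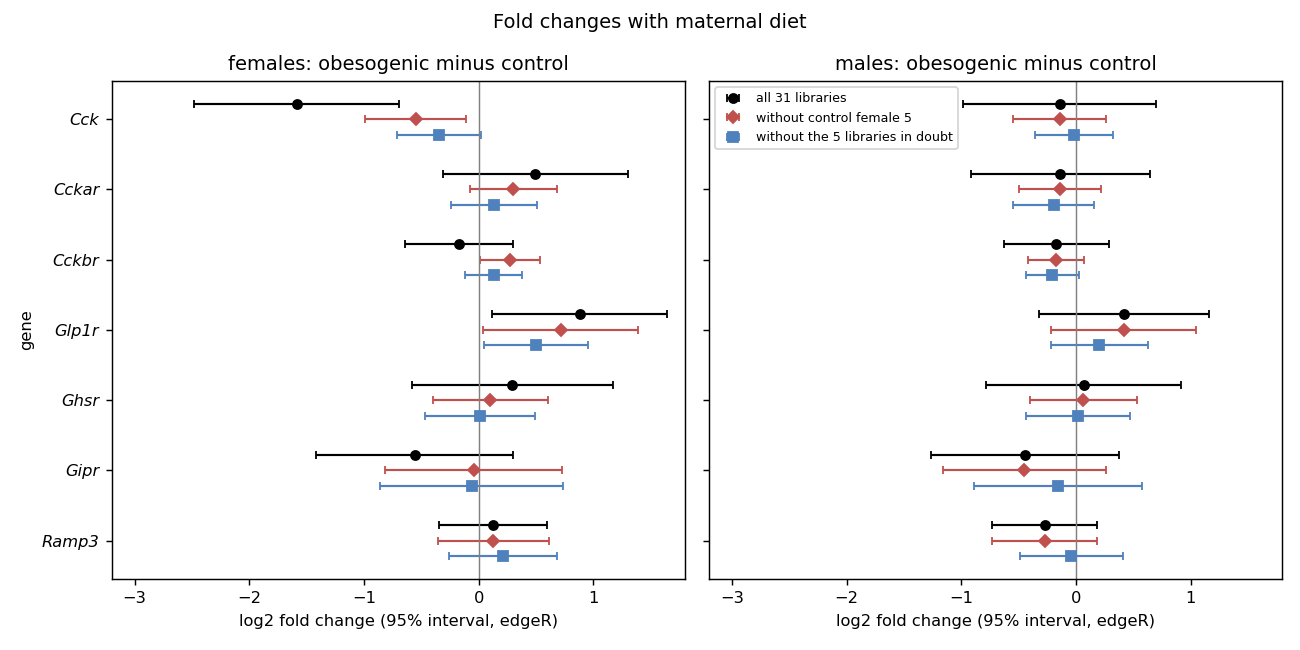
Log2 fold change of the 7 genes with maternal diet (obesogenic minus control) in females and in males, as fitted by edgeR with 95% intervals, for all 31 libraries (black), without control female 5 (red) and without the 5 libraries in doubt (blue). In females the Cck value moves from -1.59 to -0.35 across the 3 fits and Cckbr crosses 0, while the Glp1r intervals stay above 0. The intervals are per gene and not adjusted over the genes tested, and Glp1r did not pass the adjusted threshold in any of the 3 fits.

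Counted over the set, 0 of 7 genes passed an adjusted p of 0.05 in any of the 4 comparisons made with edgeR, where 0% of all genes tested passed with diet in females, 0% in males and 0% in the interaction. For females minus males 5 genes passed (0.0267%), Xist, Kdm5c, Uba1y, Uty and Gm29650, and none of the set. That share was 0.102% without the 5 libraries, again with none of the set. An unadjusted p under 0.05 was reached by 2 of 7 genes with diet in females, Cck and Glp1r, where 8.12% of all genes reached it. Without control female 5 it was reached by 3 of 7, Cck, Cckbr and Glp1r, where 6.86% of all genes did. The counts were 0 of 7 in males (3.45% of all genes), 1 of 7 in the interaction, Cck (3.62%), and 0 of 7 for females minus males (4.13%). Without the 5 libraries Glp1r alone reached it in females (8.4% of all genes), and the count was 0 in males (2.7%), in the interaction (3.48%) and between the sexes (3.89%). With DESeq2 the count that passed the adjusted threshold was also 0 of 7 in each comparison. The median log2 fold change of the 7 was 0.12 in females and -0.14 in males, against -0.01 and 0.00038 over all genes tested.

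Covariation between libraries was measured after the group means were removed, as the correlation of log2(CPM + 0.5) deviations for each of 21 pairs. Over all 31 libraries, 5 pairs passed in a two-sided permutation test within groups (100000 permutations, Benjamini-Hochberg over 21 pairs). The closest positive pair was Cckar with Ghsr (r = 0.85, adjusted permutation p = 0.0223; rho = 0.54, adjusted p = 0.0952), and the closest negative pair was Cck with Cckar (r = -0.81, adjusted permutation p = 0.0313; rho = -0.39, adjusted p = 0.209). Glp1r accounted for the other 3, with Cck (r = -0.63, adjusted permutation p = 0.0147; rho = -0.46, adjusted p = 0.0952), with Ghsr (r = 0.63, adjusted permutation p = 0.0229; rho = 0.35, adjusted p = 0.209) and with Gipr (r = -0.61, adjusted permutation p = 0.0223; rho = -0.36, adjusted p = 0.209). No Spearman rho passed with this pseudocount. With 0.1 in its place the same 5 pairs passed by r, and so did the rho of Cck with Glp1r (-0.49, adjusted permutation p = 0.0429) and of Cckar with Ghsr (0.64, adjusted permutation p = 0.0429). The ranks are of deviations from group means, which a smaller pseudocount moves further where a library is at or near 0. Control female 5 was such a library for Cckar, Ghsr and Glp1r, so these 2 rho values are no separate test. Without it, at a pseudocount of 0.5, the rho of Cckar with Ghsr was 0.30 (adjusted permutation p = 0.365). With the 2 libraries farthest from the median left out, in each case control female 5 and 1 other, r was 0.47 for Cckar with Ghsr, -0.44 for Cck with Cckar, -0.43 for Cck with Glp1r, 0.22 for Glp1r with Ghsr and -0.23 for Glp1r with Gipr.

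These relations rested largely on the libraries in doubt. Without control female 5, 3 pairs passed: Cck with Glp1r (r = -0.45, adjusted permutation p = 0.0455; rho = -0.38, adjusted p = 0.226), Cckar with Cckbr (r = 0.54, adjusted permutation p = 0.0451; rho = 0.54, adjusted p = 0.0727) and Cckbr with Ghsr (r = 0.55, adjusted permutation p = 0.0455; rho = 0.50, adjusted p = 0.109). Both pairs of Cckbr had the opposite sign over all 31 libraries, at -0.65 with Cckar and -0.56 with Ghsr. Without the 5 libraries, over the other 26, no pair passed. The strongest there was Cckbr with Ghsr (r = 0.59, rho = 0.48, adjusted permutation p = 0.120 for r and 0.277 for rho), followed by Cckbr with Ramp3 (r = 0.51, rho = 0.44, adjusted permutation p = 0.120 for r and 0.277 for rho). Cck with Glp1r stood at -0.09 and Glp1r with Ghsr at 0.01.

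**Figure D5:**
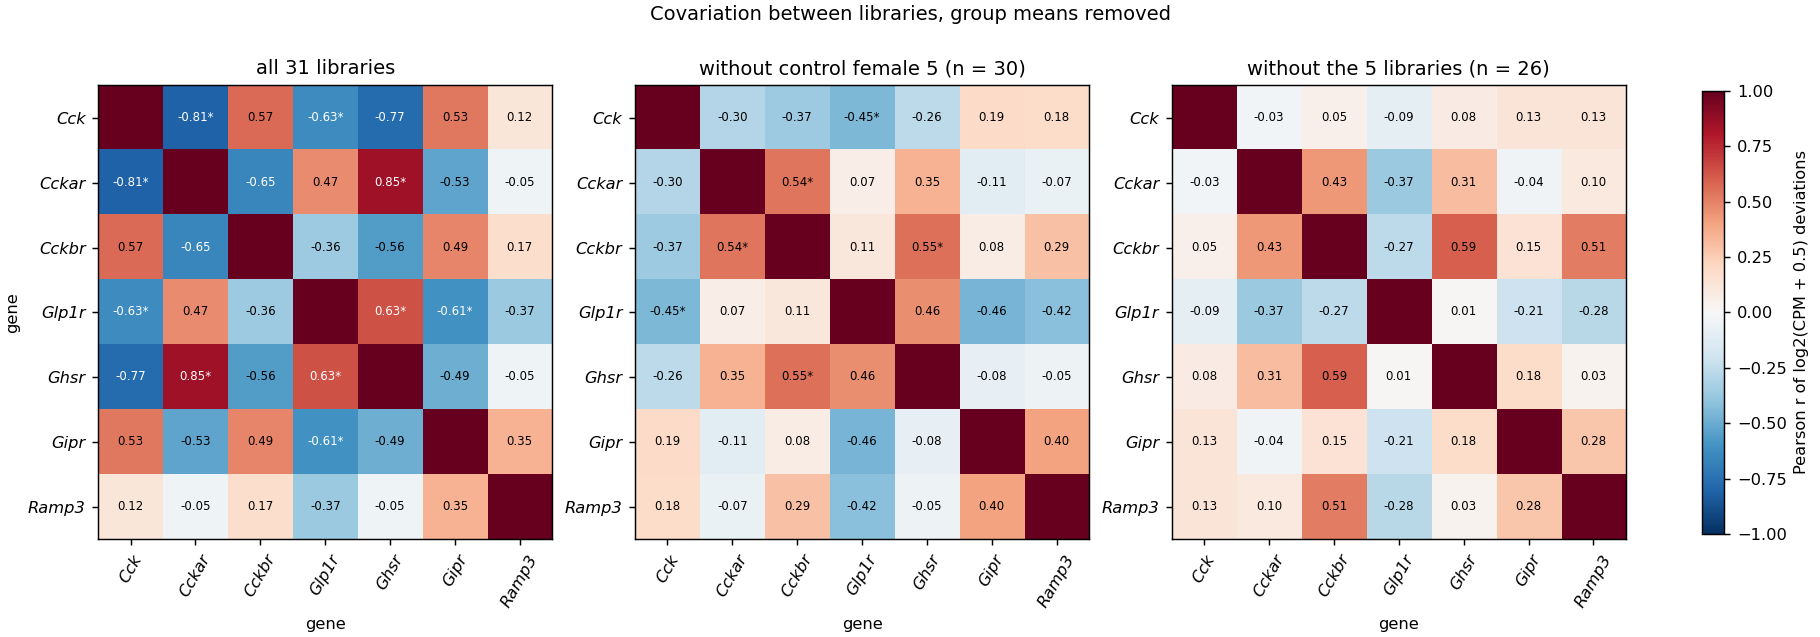
Pearson r between each pair of the 7 genes, from log2(CPM + 0.5) deviations from the group means, over all 31 libraries, without control female 5 (n = 30) and without the 5 libraries in doubt (n = 26); red is positive, blue is negative, and a star marks an adjusted permutation p under 0.05. The block of strong values that links Cck, Cckar and Ghsr on the left, such as -0.81 and 0.85, is near 0 or weaker on the right, where no pair carries a star.

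No gene of the wider pathway passed the test with diet. Of 4 lists around the set, hormones and their modifiers had 6 of 14 genes tested, other receptors and accessory proteins 16 of 18, peptide processing and degradation 9 of 9 and receptor signalling 16 of 16, and 0 genes passed an adjusted p of 0.05 with maternal diet in either sex (edgeR). Their median log2 fold changes in females were 0.08, 0.08, 0.09 and 0.07, in that order, against -0.01 for all genes tested, and in males -0.04, 0.06, 0.04 and 0.04, against 0.00038. An unadjusted p under 0.05 in females was reached by 1 gene lower in the hormones (Nmb), 3 lower in the receptors (Vipr1, Vipr2 and Ramp2), 0 in processing and 1 higher in signalling (Adcy3), and by 0 genes of the 4 lists in males, where 8.12% of all genes reached it in females and 3.45% in males. Without the 5 libraries it was reached by Ramp1 alone in females, lower (8.4% of all genes), and by Nmbr and Adcy8 in males, both higher (2.7% of all genes), 2 genes named after their values were seen. The medians without the 5 in females were -0.13, -0.04, 0.0032 and 0.06.

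The precursors of the hormones that GLP-1, ghrelin and GIP receptors bind were too low in this tissue to be tested. Gcg, the precursor of GLP-1, averaged 0.049 CPM in obesogenic females and 0.060 CPM in control females, Ghrl, the ghrelin precursor, 0.035 CPM and 0.032 CPM, and Gip had 0 pairs in all 31 libraries, which allows up to 3 pairs in each. Nmb, the neuromedin B precursor, had a log2 fold change in females of -2.29 ± 0.66 (edgeR, adjusted p = 0.514), with 75.5 CPM in control female 5, and stood at -0.26 ± 0.28 without the 5 libraries. Vipr2, a receptor for vasoactive intestinal peptide, followed the same course, at -1.27 ± 0.49 (edgeR, adjusted p = 0.549) with 77.3 CPM in control female 5 and -0.26 ± 0.21 without the 5.

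Partners of the set did not pass either. Calcr, the calcitonin receptor that RAMP3 joins, had a log2 fold change of 0.28 ± 0.42 in females (edgeR, adjusted p = 0.864), with 0 CPM in control female 5, and 0.06 ± 0.15 without the 5 libraries. Ramp1, the partner that makes a CGRP receptor, stood at -0.29 ± 0.16 in females and -0.30 ± 0.16 in males (edgeR, adjusted p = 0.639 and 0.940), and at -0.27 ± 0.12 and -0.16 ± 0.11 without the 5. Ramp2 stood at -0.29 ± 0.14 in females and -0.21 ± 0.14 in males (edgeR, adjusted p = 0.611 and 0.940), and at -0.24 ± 0.13 and -0.13 ± 0.13 without the 5. Mrap2, an accessory protein of the ghrelin and melanocortin receptors, stood at 0.18 ± 0.27 in females (edgeR, adjusted p = 0.863), with 4.16 CPM in control female 5 against a mean of 51.9 CPM in obesogenic females, and its sign turned without the 5 libraries (-0.06 ± 0.12). Pcsk1 and Pcsk2, the convertases that cut peptide precursors, stood at 0.17 ± 0.13 and 0.11 ± 0.11 in females (edgeR, adjusted p = 0.718 and 0.781), and at 0.12 ± 0.12 and 0.09 ± 0.10 without the 5. Adcy3, an adenylyl cyclase that turns receptor signals into cyclic AMP, stood at 0.25 ± 0.11 in females and 0.03 ± 0.10 in males (edgeR, adjusted p = 0.579 and 0.976), and at 0.14 ± 0.09 and 0.0057 ± 0.080 without the 5.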

How the data were processed

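RNA from hypothalamus was isolated with the RNAqueous kit and made into TruSeq libraries, per the labels' protocols. The submitters' processing notes list the build mm10 and the tools edgeR, Subread, FastQC and TopHat2 2.0.13. The deposited table holds raw counts of read pairs by gene that the authors did not normalize, made, per the file headers, with featureCounts 1.6.2 on Ensembl release 94 (minimum mapping quality 10, reverse strand, both ends mapped). Such counting leaves out pairs that map to several places or overlap several genes. Exonic length came from the same deposited table. Of 54532 genes, 54409 matched a symbol, and 0 columns were left unused.

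Members, lists and the libraries in doubt were chosen with earlier results of these data known. Named besides the 7 genes were their partners and, per list, genes with an unadjusted p under 0.05 with diet.

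CPM were scaled by TMM. Differences were tested with edgeR 4.0.16 in R 4.3.3 (filterByExpr, robust quasi-likelihood, 4 group means, Benjamini-Hochberg over all genes tested, threshold 0.05), checked on simulated data. Alternatives were DESeq2 1.42.0, limma 3.58.1 voom with quality weights, RLE factors, no filter, 1 CPM in 7 libraries, a pseudocount of 0.1 in place of 0.5, and libraries left out. Totals were 24627042 to 34232678 pairs in obesogenic females, 28019596 to 36923748 in control females, 26128150 to 36283599 in obesogenic males and 23118626 to 38547288 in control males.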

Additional observations from a re-analysis of the deposited data

Results flagged for a closer look

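Of 28 gene-by-group sets of 7 or 8 libraries, 7 held a library whose distance to its nearest neighbour was a large share of the group's range (Dixon's 95% limit); chance alone marks about 1 in 20. Control female 5 accounted for 4 of them. Its Cck level was 124.9 CPM, against 17.1 CPM in the next control female. Its Cckbr level was 47.3 CPM, against 13.5 CPM in the next, and its Gipr level 4.62 CPM, against 1.65 CPM. Its Glp1r level was the lowest of the control females at 0.351 CPM, against 1.97 CPM in the next.

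Control male 6, a library with pairs for fewer genes than most, accounted for 2. Its Cck level was the highest of the control males at 20.7 CPM, against 15.2 CPM in the next, and its Glp1r level the lowest at 0.0798 CPM, against 2.25 CPM. Control male 4 had the highest Cckbr level of the control males, 16.4 CPM, against 14.2 CPM in the next.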

How the results depend on the processing

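For the 7 genes, 179 fold changes under other tools, filters, scalings and sets of libraries kept their direction and 17 turned. With 1 library left out 431 kept it and 3 turned, counting fits that left out a library of the sex not compared. None passed the adjusted threshold. In females, Cckbr turned from -0.17 to 0.094 with voom and 0.13 without the 5 libraries (range with 1 library left out -0.29 to 0.28), and Ghsr from 0.29 to -0.027 with voom. In males Ghsr turned to -0.066 with voom (range with 1 left out -0.055 to 0.15, both control male 6 and obesogenic male 6 turning it). The interaction turned for Cckbr to 0.24 with voom, 0.0021 with at least 1 CPM in 7 libraries and 0.34 without the 5, for Ghsr to -0.0037 without the 5, and for Gipr to 0.0033 with voom and 0.10 without the 5. Females minus males turned for Cck to -0.26 with DESeq2, -0.13 with voom and -0.14 without the 5, for Glp1r to -0.0010 with voom and -0.032 without the 5, and with voom for Cckar to -0.0072 and Ghsr to -0.043.

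Of the pairs, Cckar with Cckbr turned from -0.65 to 0.54 without control female 5, 0.43 without the 5 libraries and 0.18 without the 2 farthest libraries, and Cckbr with Ghsr from -0.56 to 0.55, 0.59 and 0.17.

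DESeq2 called 6 genes with diet in females, 1 in males (Xist) and 6 in the interaction, where edgeR called 0 (1522, 647 and 679 at an unadjusted p under 0.05), and 15 between the sexes, against 5 with edgeR, 1 with voom, 1 with no filter, 13 without the 2 libraries against their sex label and 19 without the 5. The 6 in females were the Y-linked Ddx3y, Eif2s3y, Kdm5d and Uty, with Gm45716 and Mettl16. Those in the interaction were the same Y-linked genes, Xist and Slc17a7. Control female 7 and control male 7, which went against their sex label, were part of these DESeq2 fits. The causes were not tested. No paired analysis was possible because replicate numbers follow accession order. Glp1r and Gipr were limited most by depth, at 2 to 164 and 10 to 171 pairs per library.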

Other observations

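Genes whose levels followed each member most closely were taken from 13757 genes with a mean of at least 1 CPM, by Spearman's rho of log2 CPM deviations from the group means, as a description over libraries that share group, depth and tissue. Over all 31 libraries the genes closest to Cckar were Zfp612 (rho = 0.81) and Ldb2 (0.79). Calcr, the calcitonin receptor (0.79), ranked 3 and Six6, a homeobox gene of hypothalamus and retina (0.78), ranked 5. Cckar, Ghsr and Calcr stood at 0 CPM in control female 5. Such a value shifts a gene's other control females together once the group mean is removed, which alone can raise rho. Over the 26 libraries without the 5 in doubt the closest to Cckar was Tmem215 (0.78), and Trh, the thyrotropin-releasing hormone precursor (0.77), ranked 4. Calcr and Six6 were not among the 5 closest there. Cck went with Kcnj4 (0.82), a potassium channel gene, over all 31, and over the 26 with Adcyap1 (0.81), the precursor of the neuropeptide PACAP, and Fgf9 (0.78), a growth factor gene. Ghsr went with Megf11 (0.84) and Unc5c (0.82), a netrin receptor gene, over all 31, and with Cldn12 (0.79) over the 26.

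Glp1r kept 1 of its 5 closest genes in both sets, Pard3, a cell polarity gene, at 0.86 over all 31 libraries and 0.78 over the 26. For Cckbr the closest gene was Rab40b (0.72) over all 31 and Gpr6 (0.78), an orphan receptor gene of striatum, over the 26. Gipr had the lowest leading value of the set over all 31 libraries, 0.61 with Rcor3, and Ramp3 the next, 0.64 with Zfp975 and Arf2.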
